A study of Mus musculus with 16 samples.

Results

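The genes described here are 6 that act on thyroglobulin and its iodination, *Tg*, *Duox1*, *Duox2*, *Duoxa1*, *Duoxa2* and *Iyd*. They were chosen by name for what their proteins do, with earlier results of these data known. Each occurred once among the 25611 entries of the gene count table. All 6 were among the 16630 genes with enough counts to be tested. RNA-Seq was carried out on whole thyroid glands from 16 female mice. Each of 4 groups held 4 mice, and the groups were WT(ND) and WT(LID) for WT mice and *Glis3*-Pax8Cre(ND) and *Glis3*-Pax8Cre(LID) for the deleted mice. The labels give strain C57BL/6 and an age of 1 month for every mouse. *Glis3*-Pax8Cre mice, labelled with the alleles Glis3<tm2Amj> and Pax8<tm1.1(cre)Mbu> on B6;129, carry a floxed *Glis3* from which Cre, placed at *Pax8*, removes exon 5. The study's methods describe this deletion as cell type-specific, so cells of the gland without *Pax8* keep the gene. WT mice are labelled WT, with no Cre given, so loss of GLIS3 and the Cre allele at *Pax8* cannot be told apart between genotypes. The normal diet (ND) was NIH-31 and the low iodine diet (LID) was TD.95125, which the study's methods say was fed for some days before the glands were taken. The comparisons ask how iodine shortage changes these genes and which of the changes occur in *Glis3*-Pax8Cre mice.

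Thyroid hormone is made on thyroglobulin (TG), a very large protein that follicular cells secrete into the lumen of the follicle. Iodide that reaches the lumen is oxidised with hydrogen peroxide and attached to tyrosines of TG, and the peroxide comes from the dual oxidases DUOX1 and DUOX2 in the apical membrane. Each oxidase has a maturation factor, DUOXA1 or DUOXA2, that helps it leave the endoplasmic reticulum. When TG is later digested, iodotyrosine deiodinase (encoded by *Iyd*) strips iodide from the tyrosines that did not become hormone, so that the cell can use it again. Loss of TG, DUOX2, DUOXA2 or the deiodinase causes congenital hypothyroidism in humans, and a diet low in iodine raises thyrotropin (TSH), which acts on follicular cells through its receptor.

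The 4 oxidase genes form 1 locus on chromosome 2 of mm10, in which each oxidase lies head to head with its own maturation factor. *Duox2* (122280437 to 122298165, minus strand) and *Duoxa2* (122298900 to 122302885, plus strand) start 735 bases apart. *Duoxa1* (122303549 to 122313730, minus strand) and *Duox1* (122315672 to 122347972, plus strand) start 1942 bases apart. The ends of both maturation factor genes face each other at a distance of 664 bases, and the whole locus spans 67536 bases. *Tg* lies on chromosome 15 (66670770 to 66850720, plus strand) and *Iyd* on chromosome 10 (3540279 to 3554877, plus strand).

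The sequences around the start sites of 5 of the 6 genes are shown because each pair of oxidase and maturation factor is read outward from a shared region, and because the pairs differed in their response to diet. They are taken from RefSeq (GRCm38.p6, the assembly of mm10) and hold 250 bases before and 50 after the RefSeq start, 300 in all, 5′ to 3′ on the strand of the gene. The windows are chr2:122298178-122298477 (minus strand) for *Duox2*, chr2:122298650-122298949 (plus) for *Duoxa2*, chr2:122313681-122313980 (minus) for *Duoxa1*, chr2:122315422-122315721 (plus) for *Duox1* and chr10:3540024-3540323 (plus) for *Iyd*. Capitals mark matches to 4 motifs searched on both strands, which were TGGGGGG of GLIS proteins, CAAGTG of NKX2-1, the TATA box TATAAA and TGACGT of the cyclic AMP response element.
Duox2: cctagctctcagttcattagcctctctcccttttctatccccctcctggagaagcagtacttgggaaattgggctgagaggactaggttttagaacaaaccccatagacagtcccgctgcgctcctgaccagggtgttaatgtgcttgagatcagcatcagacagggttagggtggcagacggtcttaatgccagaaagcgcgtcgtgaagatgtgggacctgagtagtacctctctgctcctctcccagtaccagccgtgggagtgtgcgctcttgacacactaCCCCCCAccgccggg
Duoxa2: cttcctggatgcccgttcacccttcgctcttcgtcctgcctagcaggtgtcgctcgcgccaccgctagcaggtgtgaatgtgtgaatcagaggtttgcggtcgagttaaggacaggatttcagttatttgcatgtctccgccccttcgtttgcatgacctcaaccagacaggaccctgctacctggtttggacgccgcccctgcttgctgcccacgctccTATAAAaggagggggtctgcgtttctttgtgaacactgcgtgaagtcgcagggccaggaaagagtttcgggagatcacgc
Duoxa1: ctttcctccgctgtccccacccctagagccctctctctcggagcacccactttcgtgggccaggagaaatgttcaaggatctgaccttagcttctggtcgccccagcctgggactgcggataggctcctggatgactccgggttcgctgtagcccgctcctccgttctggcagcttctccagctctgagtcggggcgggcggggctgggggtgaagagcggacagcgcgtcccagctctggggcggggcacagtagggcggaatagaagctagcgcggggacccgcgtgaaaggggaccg
Duox1: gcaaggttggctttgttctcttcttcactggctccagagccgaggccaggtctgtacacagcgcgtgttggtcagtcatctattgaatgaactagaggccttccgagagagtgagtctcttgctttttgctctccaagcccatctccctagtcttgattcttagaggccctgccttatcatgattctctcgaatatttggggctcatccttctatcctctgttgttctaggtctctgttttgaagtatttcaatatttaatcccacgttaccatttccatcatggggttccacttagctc
Iyd: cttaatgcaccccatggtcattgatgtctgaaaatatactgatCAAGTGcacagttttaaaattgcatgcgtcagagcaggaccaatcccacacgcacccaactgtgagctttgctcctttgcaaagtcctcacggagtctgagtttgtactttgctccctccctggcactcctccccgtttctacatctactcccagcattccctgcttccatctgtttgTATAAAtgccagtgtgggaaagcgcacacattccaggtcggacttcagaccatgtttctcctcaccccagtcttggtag
The *Duox2* window held the GLIS letters on the reverse strand, with the first base 36 bases after the RefSeq start of the window. For *Duox2* this RefSeq start lies upstream of the gene start given above, and the match lies between both starts. Of all 32851 RefSeq windows of this length, 8.47% held these letters. TATA boxes stood 30 bases before the start of *Duoxa2* and 29 before that of *Iyd*, and 13.6% of windows held 1 or more. *Iyd* also held the NKX2-1 letters at 207 bases before its start, which 13.6% of windows held. None of the 4 motifs occurred in the windows of *Duox1* and *Duoxa1*, and TGACGT, present in 7.51% of windows, was in none of the 5. The share of G and C was 65.7% in *Duoxa1*, 56.7% in *Duoxa2*, 55.3% in *Duox2*, 49.0% in *Iyd* and 46.7% in *Duox1*. A match is a description of letters only, and the data hold no measurement of protein binding at these sites.

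The values are raw counts of read pairs per gene as deposited. Their total was 13892352 in *Glis3*-Pax8Cre(ND) replicate 1, 156548225 in *Glis3*-Pax8Cre(ND) replicate 2 and 461077969 in WT(ND) replicate 4. In all other mice, including every LID mouse, it was between 48886591 and 85741075. The counts were scaled here with edgeR's TMM method to CPM, the counts of a gene relative to all counts of its library. Tests between groups were edgeR's quasi-likelihood tests from 1 fit of all 16 mice, and called means an adjusted p under 0.05 (Benjamini-Hochberg over all genes tested). *Slc5a5*, the iodide importer, was at 8.43 to 20.2 CPM in *Glis3*-Pax8Cre mice and at 81.8 to 2178 CPM in WT mice, so no library went against its genotype label by this gene. *Glis3* counts over the whole gene (45.2 to 204 CPM over the 16 mice) do not show the deletion of 1 exon. All 9 follicular cell markers examined, *Tg* and *Slc5a5* among them, were detected in every mouse. Libraries of 2 mice stood apart. WT(ND) replicate 3 had 996 CPM of *Pax8*, against 374 to 397 CPM in the other WT(ND) mice and 280 to 339 CPM in WT(LID). *Glis3*-Pax8Cre mice, which carry Cre at *Pax8*, had 643 to 989 CPM on the ND and 753 to 936 CPM on the LID. By *Pax8* this WT(ND) library was thus near the level of the other genotype. Its *Slc5a5*, at 81.8 CPM, was the lowest of WT(ND). The reason was not tested. *Glis3*-Pax8Cre(ND) replicate 4 had 2214 CPM over 6 thymocyte markers, against 5.96 to 7.70 CPM in its group. Values without both are given wherever they change a call. Markers of neighbouring cell types also differed between groups. The summed level of 5 endothelial markers was 1349 to 1524 CPM in WT(LID) and 496 to 858 CPM elsewhere. For 4 fibroblast markers it was 1028 to 1198 CPM in WT(LID) and 230 to 677 CPM elsewhere. However, 2 of the 4 were called higher and 2 lower in WT(LID) against WT(ND), where 41.7% of all genes tested were called. The sum of 4 parathyroid markers was 5622 to 12570 CPM on the ND and 366 to 3734 CPM on the LID. The part of such cells in the results was not tested. In whole glands, fewer cells of a type and less RNA per cell cannot be told apart.

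*Tg*, the hormone precursor, was by far the most abundant of the 6 and was lower in *Glis3*-Pax8Cre thyroids on both diets, while the LID left no detectable difference in WT. In replicates 1 to 4 its level was 303736, 200192, 226403 and 292090 CPM for WT(ND), while it was 117883, 176731, 162973 and 124612 CPM in *Glis3*-Pax8Cre(ND). Under the LID it was 224533, 313733, 289430 and 206312 CPM for WT mice, and 112324, 77190, 140345 and 96912 CPM for *Glis3*-Pax8Cre mice. Every WT mouse was above every *Glis3*-Pax8Cre mouse on either diet. As a share of all counts in a library, *Tg* took 25.6% ± 3.77 (SD, n = 4) on the ND and 23.2% ± 3.49 on the LID in WT mice, against 15.9% ± 2.39 and 10.6% ± 2.27 in *Glis3*-Pax8Cre mice.

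Between genotypes on the LID, *Tg* differed by -1.28 on the log2 scale (SE 0.23, adjusted p = 0.000683, edgeR's quasi-likelihood test), a 2.42-fold lower level. On the ND it was -0.81 (SE 0.23, adjusted p = 0.0239, same test), or 1.76-fold lower. The ND call was lost in a fit of only the 8 ND mice (-0.79, adjusted p = 0.0682) and on leaving out replicate 1 (-0.71) or 4 (-0.73) of WT(ND) or replicate 1 of *Glis3*-Pax8Cre(ND) (-0.72). The difference between diets was 0.02 in WT (95% interval -0.47 to 0.51) and -0.45 in *Glis3*-Pax8Cre mice (95% interval -0.94 to 0.04, adjusted p = 0.167, and -0.58 with adjusted p = 0.0348 when libraries were scaled by size alone). The test of the difference between these diet effects gave -0.46 (adjusted p = 0.397). *Sla*, a gene of lymphocyte signalling, lies inside *Tg* on the other strand. As the counting ignored strand, reads of their overlap cannot be told apart, but *Sla* had a mean of at most 48.2 CPM in any group.

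*Iyd*, which recovers iodide within the cell, was higher on the LID in both genotypes. In replicates 1 to 4 its level was 821, 734, 870.4 and 628 CPM on the ND and 1416, 1325, 1367 and 1245 CPM on the LID in WT mice. *Glis3*-Pax8Cre replicates were at 858, 888, 1004 and 650.2 CPM on the ND and at 1124, 1252, 1298 and 1101 CPM on the LID. All LID mice were above all ND mice, whereas the genotypes overlapped on each diet.

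The rise of *Iyd* was 0.81 on the log2 scale in WT (SE 0.13, adjusted p = 0.000148, edgeR's quasi-likelihood test), which is 1.75-fold, and 0.49 in *Glis3*-Pax8Cre (SE 0.13, adjusted p = 0.0116), which is 1.40-fold. The latter missed the threshold in a fit of only the 8 *Glis3*-Pax8Cre mice (0.48, adjusted p = 0.0618). *Iyd* was not called between genotypes on the ND (0.16, 95% interval -0.12 to 0.43) or on the LID (-0.16, 95% interval -0.44 to 0.11). The diet effects of both genotypes differed by -0.32 (adjusted p = 0.281, same test). Without the 2 libraries that stood apart, this difference was -0.52 (adjusted p = 0.0294) and *Iyd* was also called higher in *Glis3*-Pax8Cre(ND) than in WT(ND) (0.34, adjusted p = 0.0372).

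**Figure D1:**
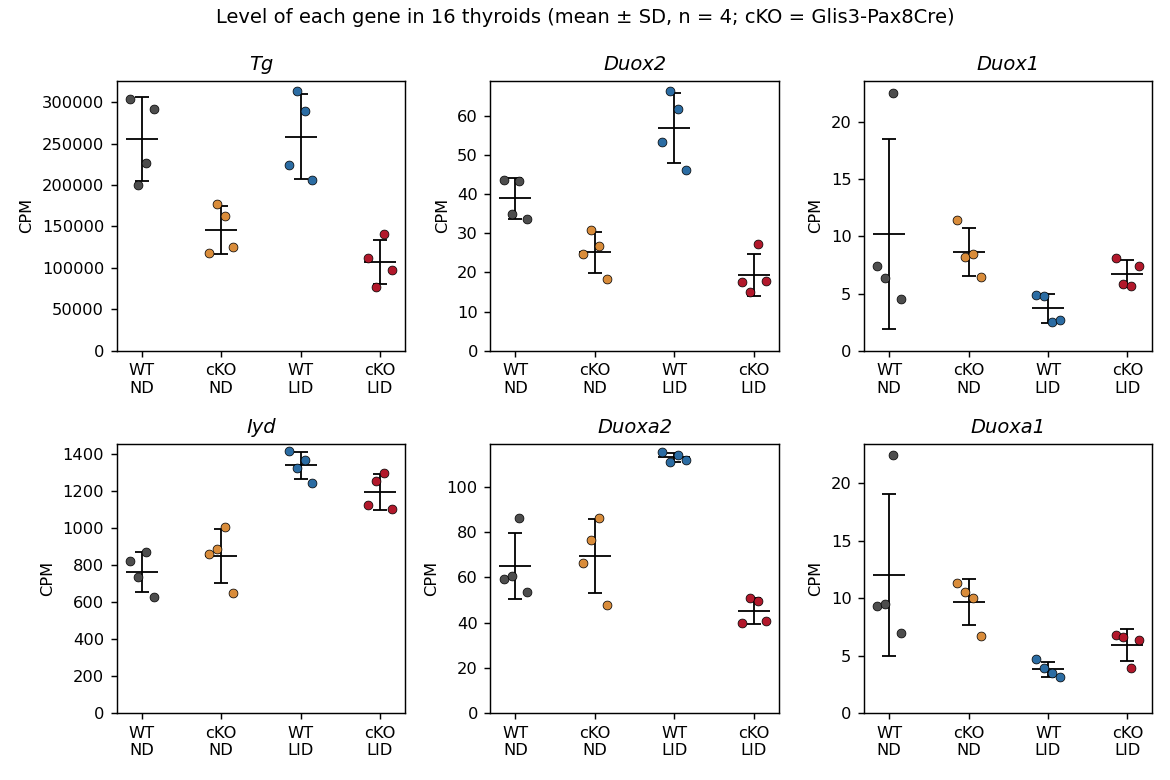
Level of each of the 6 genes in CPM, on linear axes from 0, with 1 point per mouse and black lines for the mean ± SD of 4 mice; cKO stands for *Glis3*-Pax8Cre. *Duox2* and *Duoxa2* were highest in WT(LID) and lowest in *Glis3*-Pax8Cre(LID), while *Duox1* and *Duoxa1* were lowest in WT(LID) and had 1 WT(ND) mouse at 22.6 and 22.4 CPM.

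*Duox2*, the main oxidase of the thyroid, was called higher on the LID in WT and not in *Glis3*-Pax8Cre mice, and was lower in *Glis3*-Pax8Cre thyroids on both diets. In replicates 1 to 4 its level was 43.5, 34.9, 43.4 and 33.6 CPM on the ND and 53.4, 66.2, 61.6 and 46.0 CPM on the LID in WT mice. *Glis3*-Pax8Cre mice had, in the same order, 24.7, 30.8, 26.8 and 18.2 CPM on the ND and 17.5, 15.05, 27.2 and 17.9 CPM on the LID. WT(LID) mice did not overlap with any other group, and the *Glis3*-Pax8Cre mice of both diets overlapped with each other but with no WT mouse.

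On the LID, *Duox2* rose in WT mice by 0.55 on the log2 scale (SE 0.19, adjusted p = 0.0274, edgeR's quasi-likelihood test), or 1.46-fold. It kept its direction but missed the threshold when libraries were scaled by size alone (0.38, adjusted p = 0.0600). The same held when replicate 2 (0.50) or 4 (0.49) of WT(ND), or replicate 2 (0.47) or 3 (0.51) of WT(LID), was left out. In *Glis3*-Pax8Cre mice the LID value was -0.37 (95% interval -0.77 to 0.03, adjusted p = 0.157), and it was called with scaling by library size alone (-0.51, adjusted p = 0.0277) and on leaving out replicate 4 of *Glis3*-Pax8Cre(ND) (-0.51) or replicate 3 of *Glis3*-Pax8Cre(LID) (-0.59). Between genotypes *Duox2* fell by 1.55 on the LID (SE 0.19, adjusted p = 2.33e-05), or 2.92-fold, and by 0.63 on the ND (SE 0.19, adjusted p = 0.0295), or 1.54-fold. The diet effects of the genotypes differed by -0.92 (SE 0.26, adjusted p = 0.0341), a call that 9 of the 16 fits leaving out 1 mouse lost, with values between -1.14 and -0.80. The ND difference was -0.43 (adjusted p = 0.123) without the 2 libraries that stood apart, and the threshold was also missed without replicate 1 (-0.56) or 3 (-0.56) of WT(ND), or replicate 1 (-0.62) or 4 (-0.49) of *Glis3*-Pax8Cre(ND).

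*Duoxa2*, the maturation factor of DUOX2, rose with the LID in WT and fell with it in *Glis3*-Pax8Cre mice. In replicates 1 to 4 its level was 59.3, 60.8, 86.1 and 53.6 CPM on the ND and 115.1, 111.0, 113.8 and 111.7 CPM on the LID in WT mice. Replicates of *Glis3*-Pax8Cre mice lay at 66.4, 76.5, 86.2 and 47.9 CPM under the ND and 39.9, 50.9, 49.4 and 40.9 CPM under the LID. The 4 WT(LID) mice lay close together above all others, and on the ND the genotypes overlapped.

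The rise of *Duoxa2* in WT was 0.80 (SE 0.17, adjusted p = 0.00121, edgeR's quasi-likelihood test), or 1.74-fold. In *Glis3*-Pax8Cre mice it fell by 0.61 (SE 0.17, adjusted p = 0.0133), or 1.53-fold, although 1 ND mouse, replicate 4, lay within the LID range. The diet effects of the genotypes differed by -1.41 (SE 0.23, adjusted p = 0.00101), which held in every fit leaving out 1 mouse (-1.60 to -1.29). Between genotypes *Duoxa2* fell by 1.32 on the LID (SE 0.17, adjusted p = 2.86e-05), or 2.49-fold. On the ND it was not called (0.09, 95% interval -0.26 to 0.44). Without the 2 libraries that stood apart the ND value was 0.41 and was called (adjusted p = 0.0133), so that in this setting *Duoxa2* was higher in *Glis3*-Pax8Cre(ND) than in WT(ND).

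*Duox1*, the other oxidase of the locus, was the least abundant of the 6 per length of transcript in each group and moved in the opposite direction to *Duox2* in WT. In replicates 1 to 4 its level was 7.41, 6.32, 22.6 and 4.56 CPM on the ND and 4.87, 4.79, 2.52 and 2.73 CPM on the LID in WT mice. *Glis3*-Pax8Cre replicates were at 11.5, 8.23, 8.44 and 6.44 CPM on the ND and at 8.09, 5.81, 5.66 and 7.40 CPM on the LID. WT(ND) replicate 3 was far above the rest, WT(ND) and WT(LID) overlapped, and every *Glis3*-Pax8Cre(LID) mouse was above every WT(LID) mouse.

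*Duox1* fell by 1.45 in WT(LID) against WT(ND) (SE 0.42, adjusted p = 0.0119, edgeR's quasi-likelihood test), or 2.73-fold. Without WT(ND) replicate 3 the value was -0.70 (adjusted p = 0.0484), a much smaller change that still passed. The LID value of *Glis3*-Pax8Cre mice was -0.35 (95% interval -1.23 to 0.52). Between genotypes on the LID the value was 0.85 (SE 0.41, adjusted p = 0.138) and missed the threshold, but it was called when that library was left out of the fit (0.85, adjusted p = 0.0170) and in a fit of only the 8 LID mice (0.85, adjusted p = 0.0207). On the ND the value was -0.24 and turned to 0.51 (adjusted p = 0.189) without WT(ND) replicate 3. The diet effects of the genotypes differed by 1.10 (SE 0.58, adjusted p = 0.248), which was not called and was 0.33 without WT(ND) replicate 3 and 0.22 without both libraries that stood apart.

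*Duoxa1*, the maturation factor of DUOX1, followed *Duox1*. In replicates 1 to 4 its level was 9.28, 9.46, 22.4 and 6.98 CPM on the ND and 4.68, 3.95, 3.49 and 3.19 CPM on the LID in WT mice. *Glis3*-Pax8Cre mice had, in the same order, 11.3, 10.6, 10.005 and 6.74 CPM on the ND and 6.79, 6.61, 3.90 and 6.40 CPM on the LID. Every WT(LID) mouse was below every WT(ND) mouse, and replicate 3 of WT(ND) was again far above its group.

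*Duoxa1* fell by 1.65 in WT(LID) against WT(ND) (SE 0.31, adjusted p = 0.000647, edgeR's quasi-likelihood test), or 3.14-fold, and by 1.15 without WT(ND) replicate 3. In *Glis3*-Pax8Cre mice the LID value was -0.70 (SE 0.31, adjusted p = 0.106), and it was called without WT(ND) replicate 3 (-0.71, adjusted p = 0.0187). Between genotypes on the LID the value was 0.63 (SE 0.31, adjusted p = 0.140), called without that library (adjusted p = 0.0300) and in a fit of only the 8 LID mice (adjusted p = 0.0321). On the ND it was -0.32, and 0.18 without that library. The diet effects of the genotypes differed by 0.95 (SE 0.43, adjusted p = 0.175), a value that was 0.44 without WT(ND) replicate 3 and 0.30 without both libraries that stood apart. Airway epithelium also uses the DUOX1 pair. Of 9 airway markers, 6 were called higher and 2 lower in *Glis3*-Pax8Cre(LID) mice than in WT(LID) mice. Of all genes tested, 14.9% were called higher and 15.4% lower there. The summed level of the markers was 204 to 476 CPM against 39.0 to 44.6 CPM. The summed level was 52.5 to 124 CPM in the ND groups, where *Duox1* and *Duoxa1* had their highest means. Of the 9 markers, *Scgb1a1* was at 0 in 2 mice and *Scgb3a2* in 1, and the others were detected in every mouse. The part of such cells in *Duox1* and *Duoxa1* was not tested.

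**Figure D2:**
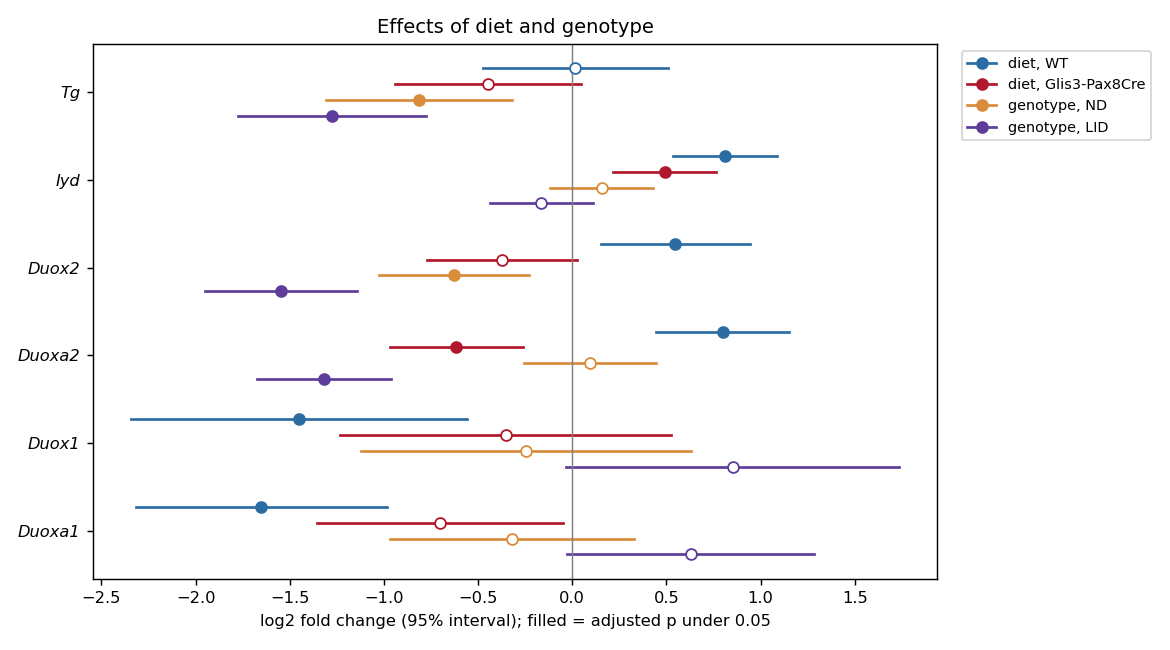
Log2 fold change of each gene with its 95% interval for the LID against the ND in each genotype and for *Glis3*-Pax8Cre against WT on each diet, filled where the adjusted p was under 0.05. The WT diet effect of *Duox2* and *Duoxa2* lay above 0 and that of *Duox1* and *Duoxa1* below 0, and the LID genotype effect of *Duox2* and *Duoxa2* lay at -1.55 and -1.32.

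Over all 6 genes, 3 were called higher and 2 lower in WT(LID) than in WT(ND), in a comparison in which 41.7% of all genes tested were called, 20.9% higher and 20.8% lower. In *Glis3*-Pax8Cre(ND) against WT(ND), 2 of the 6 were called, both lower, where 19.6% of all genes were called, 10.3% higher and 9.25% lower. These 3252 genes were 2153 without replicate 1 of WT(ND) and 2053 without its replicate 4. In *Glis3*-Pax8Cre(LID) against WT(LID), 3 were called, all lower, where 30.2% of genes were called, 14.9% higher and 15.4% lower. In *Glis3*-Pax8Cre(LID) against *Glis3*-Pax8Cre(ND), 1 was called higher and 1 lower, where 25.4% of genes were called, 13.1% higher and 12.3% lower. The difference between the diet effects was called for 2 of the 6, both lower, where it was called for 11.8% of all genes, 4.43% higher and 7.41% lower. The 6 genes were few, and changes were common among all genes in each comparison. The comparisons share groups, so their values for a gene are not independent of each other.

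In the order of the 4 group means, *Tg* ran from *Glis3*-Pax8Cre(LID) through *Glis3*-Pax8Cre(ND) and WT(ND) to WT(LID), and the only neighbours that differed were the ND groups. *Duox2* had the same order, and both *Glis3*-Pax8Cre groups were the only neighbours that did not differ by the test. *Duoxa2* ran from *Glis3*-Pax8Cre(LID) through WT(ND) and *Glis3*-Pax8Cre(ND) to WT(LID), with no call between the ND groups. *Iyd* ran from WT(ND) through *Glis3*-Pax8Cre(ND) and *Glis3*-Pax8Cre(LID) to WT(LID), with a call only between the diets of *Glis3*-Pax8Cre mice. *Duox1* and *Duoxa1* ran from WT(LID) through *Glis3*-Pax8Cre(LID) and *Glis3*-Pax8Cre(ND) to WT(ND), and no neighbouring groups differed.

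Levels of different genes were compared per length, as CPM per kilobase of the longest protein-coding transcript in GENCODE. In WT(ND) this level was 30235 ± 5942 for *Tg*, 483 ± 67.3 for *Iyd*, 40.8 ± 9.07 for *Duoxa2*, 6.36 ± 0.873 for *Duox2*, 4.88 ± 2.85 for *Duoxa1* and 1.94 ± 1.58 for *Duox1* (SD, n = 4). In WT(LID) the levels were 30577 ± 6064, 848 ± 45.9, 70.9 ± 1.18, 9.29 ± 1.46, 1.55 ± 0.262 and 0.708 ± 0.243 in the same order. In both pairs the mean level per length of the maturation factor was above that of its oxidase.

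The contrast between the *Duox2* and *Duox1* sides of the locus was also measured as the ratio of counts within a mouse, which does not depend on how libraries are scaled. The ratio of *Duox2* to *Duox1* in replicates 1 to 4 was 5.86, 5.51, 1.92 and 7.38 in WT(ND) and 10.9, 13.8, 24.4 and 16.8 in WT(LID). Among *Glis3*-Pax8Cre mice it was 2.15, 3.74, 3.17 and 2.83 on the ND and 2.17, 2.59, 4.80 and 2.42 on the LID. All WT(LID) mice were above all mice of the other groups, and both *Glis3*-Pax8Cre groups overlapped.

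The ratio of *Duoxa2* to *Duoxa1* in replicates 1 to 4 was 6.39, 6.42, 3.84 and 7.68 in WT(ND) and 24.6, 28.1, 32.5 and 34.9 in WT(LID). It was 5.87, 7.24, 8.61 and 7.10 in *Glis3*-Pax8Cre(ND) and 5.87, 7.69, 12.6 and 6.38 in *Glis3*-Pax8Cre(LID). WT(LID) again stood above the other 3 groups, which overlapped.

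On the log2 scale the mean ratio of *Duox2* to *Duox1* was 3.98 ± 0.49 (SD, n = 4) in WT(LID) and 2.21 ± 0.86 in WT(ND), a difference of 1.77, and it was 1.51 ± 0.52 in *Glis3*-Pax8Cre(LID), a difference of -2.47 from WT(LID). For *Duoxa2* to *Duoxa1* the corresponding differences were 2.34 and -1.94. Each of these 4 differences had p = 0.0286 in a two-sided exact permutation test, the smallest p that 4 against 4 mice allow. After adjustment over the 16 ratio tests the exact permutation p was 0.0914, so 0 of the 16 passed. At an unadjusted exact permutation p under 0.05, 5 of 16 did. With 4 mice per group, no ratio can pass the adjustment unless most of the 16 tests reach the smallest p. The count of 0 therefore does not show that the ratios were alike between groups. Between the diets of *Glis3*-Pax8Cre mice the differences were -0.04 for the oxidases (exact permutation p = 0.914) and 0.12 for the maturation factors (exact permutation p = 0.743).

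The ratio of an oxidase to its own maturation factor varied less. *Duox2* to *Duoxa2* lay between 0.296 and 0.734 over the 16 mice and *Duox1* to *Duoxa1* between 0.653 and 1.45. *Duox2* to *Duoxa2* was 0.504 to 0.734 in WT(ND) and 0.311 to 0.402 in *Glis3*-Pax8Cre(ND), without overlap, a log2 difference of -0.73 (exact permutation p = 0.0286, adjusted p = 0.0914). The other 7 tests of these 2 ratios had exact permutation p-values of 0.0857 or more.

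**Figure D3:**
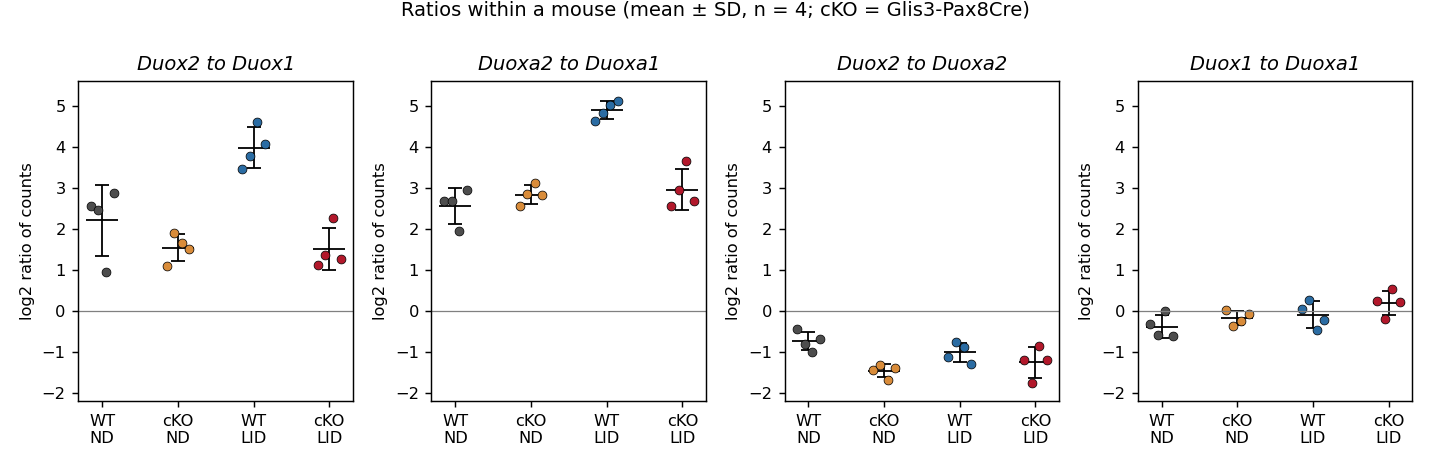
Log2 ratio of the counts of 2 genes within a mouse for 4 gene pairs, with 1 point per mouse, black lines for the mean ± SD of 4 mice and a grey line at 0 (equal counts). WT(LID) mice lay above the other groups for *Duox2* to *Duox1* (mean 3.98) and *Duoxa2* to *Duoxa1* (mean 4.89), and the ratios of oxidase to maturation factor stayed between -1.76 and 0.54.

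Within groups, levels of some of the 6 genes went up and down together from mouse to mouse, on the locus and across chromosomes. All 15 pairs were tested over the deviations of 16 mice from their group means on the log2 CPM scale, with mice shuffled within groups and p-values adjusted over the 15, and 4 passed by Pearson's r. For *Duox1* and *Duoxa1*, r was 0.90 (permutation p = 0.00023, adjusted p = 0.00172) and Spearman's rho was 0.83 (permutation p = 0.00051, adjusted p = 0.00765). Without the 2 mice farthest from the median of *Duox1* this r was 0.73, and without WT(ND) replicate 3 it was 0.80. For *Iyd* and *Duoxa2*, which lie on different chromosomes, r was also 0.90 (permutation p = 0.00023, adjusted p = 0.00172) and rho was 0.82 (permutation p = 0.00144, adjusted p = 0.0108), with r at 0.82 without the 2 farthest mice. For *Tg* and *Duox2*, r was 0.75 (permutation p = 0.00509, adjusted p = 0.0254) and rho was 0.77 (permutation p = 0.00348, adjusted p = 0.0174), with r at 0.62 without the 2 farthest mice. For *Iyd* and *Duox2*, r was 0.66 (permutation p = 0.0112, adjusted p = 0.0421) and rho was 0.67 (permutation p = 0.0141, adjusted p = 0.0528), with r at 0.50 without the 2 farthest mice.

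The other 3 pairs of the locus that the ratios compare did not pass. For *Duox2* and *Duoxa2*, r was 0.54 (permutation p = 0.0653, adjusted p = 0.163) and rho was 0.44 (permutation p = 0.142). For *Duoxa2* and *Duoxa1*, r was 0.61 (permutation p = 0.0464, adjusted p = 0.139) and rho was 0.44 (permutation p = 0.132), and r fell to 0.25 without the 2 farthest mice. For *Duox2* and *Duox1*, r was 0.30 (permutation p = 0.210) and rho was 0.36 (permutation p = 0.186). These relations were computed after the values had been seen, and both genes of a pair share each library's depth and scaling. Genes outside the 6, picked as most alike over the 16 mice, also had high r within groups. It ran from 0.55 for *Duox2* and *1700003D09Rik* to 0.87 for *Iyd* and *Atp6ap1*. The r over the 16 mice includes the deviations within groups, so picking genes by it favours a high r within groups. The share of all gene pairs with such an r was not computed. Whether these relations are particular to the 6 genes was therefore not tested.

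**Figure D4:**
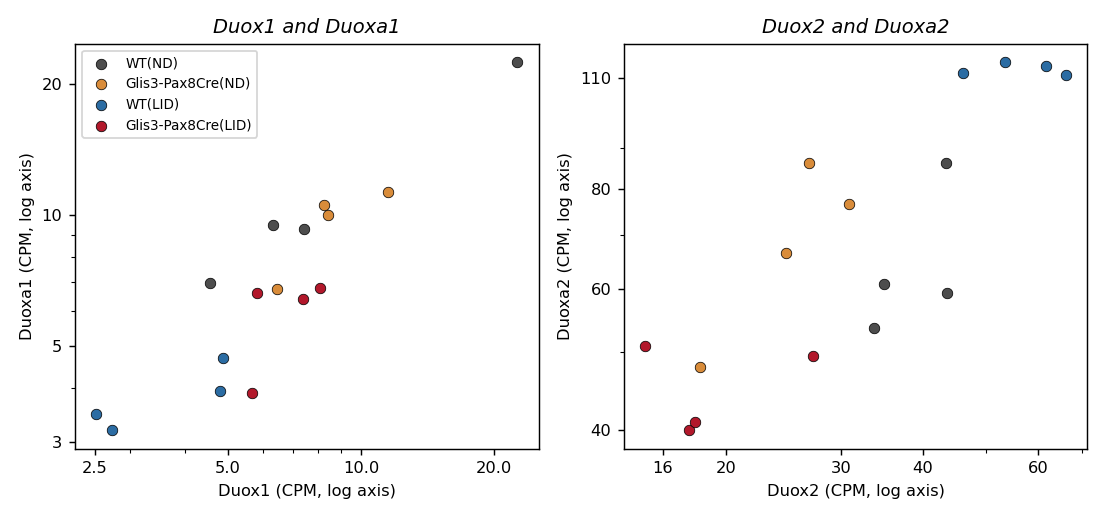
Level of each oxidase (x axis) against its maturation factor (y axis) in CPM on log axes, 1 point per mouse, coloured by group. *Duox1* and *Duoxa1* lay along 1 line from WT(LID) at 2.52 and 3.49 CPM to WT(ND) replicate 3 at 22.6 and 22.4 CPM, while *Glis3*-Pax8Cre(ND) mice had lower *Duox2* than WT(ND) mice at a similar level of *Duoxa2*.

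Of 10 other genes within 100 kb of the 6 genes, 8 were tested, and 5 of them were called in WT(LID) against WT(ND), where 41.7% of all genes were called. Between genotypes 2 of the 8 were called on the ND and 3 on the LID, 3 between the *Glis3*-Pax8Cre diets and 1 in the difference between diet effects, against 19.6%, 30.2%, 25.4% and 11.8% of all genes. *Sord*, which encodes sorbitol dehydrogenase and lies on the *Duox2* side of the locus, was at 394 ± 51.0 CPM in WT(ND) and 804 ± 56.2 CPM in WT(LID) (SD, n = 4). It rose by 1.03 in WT (adjusted p = 5.47e-07, edgeR's quasi-likelihood test) and by 0.88 in *Glis3*-Pax8Cre (adjusted p = 1.02e-05). *Shf*, on the *Duox1* side, was at 8.90 ± 1.29 CPM in WT(ND) and 6.24 ± 0.388 CPM in WT(LID). It fell by 0.51 in WT (adjusted p = 0.00643) and by 0.43 in *Glis3*-Pax8Cre (adjusted p = 0.0283). Neither was called between genotypes on either diet. Next to *Tg*, *Wisp1*, a secreted matricellular protein, was at 208 ± 54.7 CPM in WT(ND) and 34.8 ± 1.46 CPM in *Glis3*-Pax8Cre(ND), a fall by 2.58 (adjusted p = 4.13e-06), and it fell by 2.89 on the LID (adjusted p = 2.44e-07). Near *Iyd*, *Ppp1r14c*, an inhibitor of protein phosphatase 1, was on the LID at 0.732 ± 0.266 CPM for WT and 3.14 ± 0.940 CPM for *Glis3*-Pax8Cre mice, a rise by 2.11 (adjusted p = 0.000228).

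**Figure D5:**
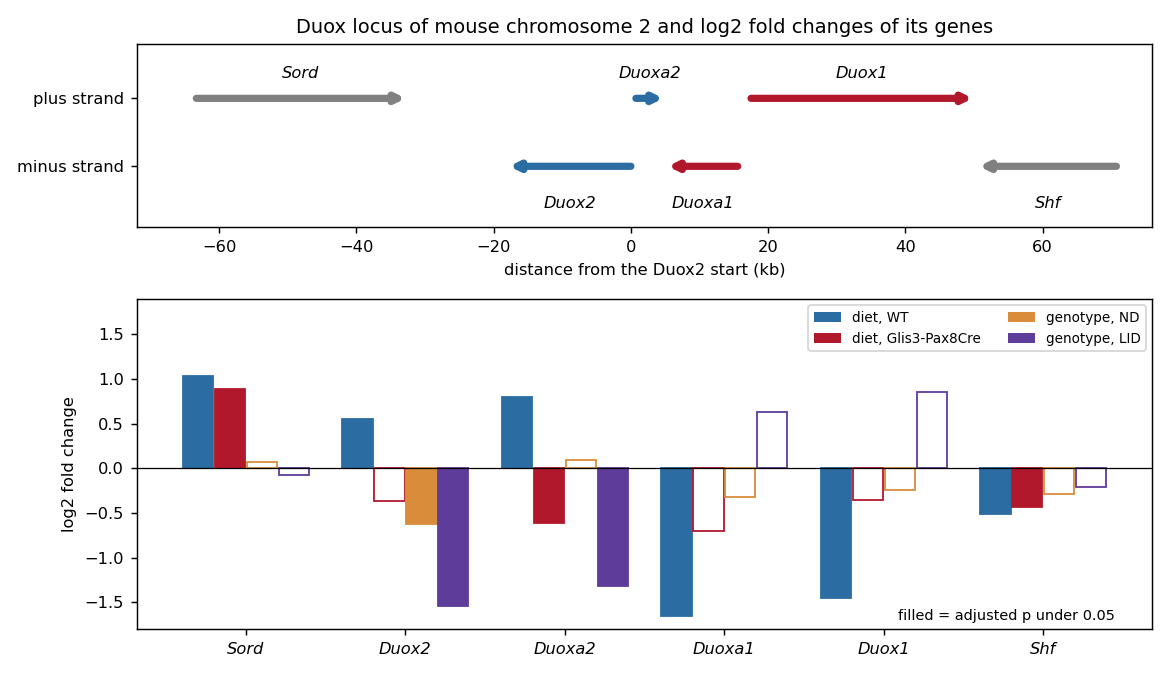
Map of the Duox locus with *Sord* and *Shf* (top, distance from the *Duox2* start in kb, arrows in the direction of transcription) and the log2 fold changes of its genes (bottom, filled bars for adjusted p under 0.05). The WT diet effect was above 0 from *Sord* (1.03) to *Duoxa2* (0.80) and below 0 from *Duoxa1* (-1.65) to *Shf* (-0.51).

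Among 21 other genes of hormone synthesis (transport of iodide, hormone release, TSH reception and thyroid transcription factors), 10 were called higher and 4 lower in WT(LID) than in WT(ND), with a median log2 fold change of 0.37 against -0.03 over all genes tested, of which 41.7% were called. *Slc5a5* (3.80, adjusted p = 3.80e-08), the iodide and chloride exchanger gene *Slc26a4* (2.82, adjusted p = 1.62e-06) and the deiodinase gene *Dio1* (1.72, adjusted p = 3.63e-08) had the largest changes (edgeR's quasi-likelihood test). In *Glis3*-Pax8Cre(LID) against *Glis3*-Pax8Cre(ND), 9 were higher and 2 lower (median 0.52, with 25.4% of all genes called), with 1.69 for *Slc26a4*, 1.34 for the TSH receptor gene *Tshr* and -1.19 for the chloride channel gene *Cftr*. Pairing the 8 *Glis3*-Pax8Cre mice by replicate number, as a block, lost the *Cftr* call (-1.16, adjusted p = 0.0791). It was also lost in a fit of those 8 mice without pairing (adjusted p = 0.0598) and without replicate 2 or 3 of *Glis3*-Pax8Cre(ND), where the value reached -0.98. Between genotypes on the LID, 5 were higher and 7 lower in *Glis3*-Pax8Cre mice (median -0.20, with 30.2% of all genes called), led by *Slc5a5* (-6.92), *Slc26a4* (-2.39) and the potassium channel gene *Kcnq1* (-1.72). On the ND, 3 were higher and 5 lower (median -0.13, with 19.6% of all genes called), led by *Slc5a5* (-3.70), *Cftr* (-1.35) and *Slc26a4* (-1.26). Without the 2 libraries that stood apart *Slc26a4* was -0.83 and still called, and its call was lost in a fit of only the 8 ND mice (adjusted p = 0.0637). The difference between diet effects was called for 3 of the 21, all lower, where 11.8% of all genes were called.

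The other NADPH oxidase genes, which make superoxide or peroxide mainly in phagocytes and other tissues, were 12 in the list, of which 10 were tested. In WT(LID), 3 were higher and 1 lower than in WT(ND), with 0.61 for *Cyba*, a subunit of the phagocyte oxidase, and -0.45 for its catalytic subunit *Cybb*, where 41.7% of all genes were called. The *Cybb* call was lost without replicate 2 or 3 of WT(ND) or replicate 1 of WT(LID) (adjusted p up to 0.0868), and without the 2 libraries that stood apart (-0.32, adjusted p = 0.0769). In *Glis3*-Pax8Cre(ND), 4 were higher and 1 lower than in WT(ND), led by the oxidase organiser *Noxo1* (-1.02), the oxidase *Nox4* (0.98) and *Ncf1* (0.60), where 19.6% of all genes were called. This *Nox4* call held in 24 of 25 alternative fits (adjusted p up to 0.0535). In *Glis3*-Pax8Cre(LID), 1 was higher and 3 lower than in WT(LID), led by the oxidase activator *Noxa1* (1.17), *Noxo1* (-0.60) and *Ncf4* (-0.43), where 30.2% of all genes were called. The *Ncf4* call was lost in 9 of the 16 fits leaving out 1 mouse (adjusted p up to 0.0996), which were those without replicate 2 of WT(ND), replicate 1 of *Glis3*-Pax8Cre(ND), any mouse of WT(LID) or replicate 1, 3 or 4 of *Glis3*-Pax8Cre(LID). The *Ncf4* value was -0.28 with scaling by library size alone (adjusted p = 0.230), and its call held in 14 of 25 alternative fits. The *Noxo1* call was lost under that scaling (adjusted p = 0.0552) and without replicate 2 of WT(LID) (adjusted p = 0.0510). Between the diets of *Glis3*-Pax8Cre mice 2 were higher and 4 lower, led by *Noxa1* (1.49), *Nox4* (-0.77) and *Cybb* (-0.71), where 25.4% of all genes were called. The *Nox4* call was lost without replicate 2 or 3 of *Glis3*-Pax8Cre(ND) or replicate 1 or 2 of *Glis3*-Pax8Cre(LID) (adjusted p up to 0.0723). The difference between diet effects was called for 3, all lower, where 11.8% of all genes were called. Summed macrophage markers were at 170.4 to 206 CPM in *Glis3*-Pax8Cre(ND) and at 105 to 157 CPM in the other groups, with all 4 called higher in *Glis3*-Pax8Cre(ND) than in WT(ND). The part of such cells was not tested.

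Among 11 chaperones and disulfide isomerases that fold secreted proteins such as TG in the endoplasmic reticulum, 7 were called in WT(LID) against WT(ND), all higher (median 0.56), where 41.7% of all genes were called. *Pdia6* (1.18), *Calr* (1.01) and *Pdia4* (1.00) rose most, while *Tg* itself was at 0.02. In *Glis3*-Pax8Cre(LID), 8 were called against *Glis3*-Pax8Cre(ND), all higher (median 0.75), led by *Pdia4* (0.97), *P4hb* (0.97) and *Hsp90b1* (0.83), where 25.4% of all genes were called. The *Hsp90b1* call was lost without replicate 2 or 3 of *Glis3*-Pax8Cre(LID) (adjusted p up to 0.0637). Over all alternative fits it held in 23 of 26 (adjusted p up to 0.0809). Between genotypes 2 were called on the LID, *Canx* (0.41) and *P4hb* (0.41), both higher in *Glis3*-Pax8Cre(LID), where 30.2% of all genes were called. Over all 16 fits leaving out 1 mouse, *Canx* lay between 0.33 and 0.50 and *P4hb* between 0.36 and 0.45. Of these fits, 4 lost the *Canx* call (adjusted p up to 0.0828) and 7 lost that of *P4hb* (adjusted p up to 0.0978). The calls lost for *Canx* were those without replicate 3 or 4 of WT(LID) or replicate 2 or 3 of *Glis3*-Pax8Cre(LID). For *P4hb* they were those without replicate 1 or 4 of WT(ND), replicate 2, 3 or 4 of WT(LID), or replicate 2 or 3 of *Glis3*-Pax8Cre(LID). Over all 25 alternative fits the call held in 21 for *Canx* and in 16 for *P4hb*. On the ND 0 of 11 were called, as were 0 of 11 in the difference between diet effects, by edgeR's quasi-likelihood test. At an unadjusted p under 0.05 these counts were 2 and 0, and DESeq2 called 1 and 0.

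The genes whose log2 CPM was most alike to each of the 6 over the 16 mice were taken from 11673 genes with a mean of at least 5 CPM, by Pearson's r and as a description only. For *Tg* they were *Cobll1* (r = 0.95), *Plekha1* and *Cacna1c*. For *Iyd* they were *Emp2* (0.97), *Atp6ap1* and *Edem2*. For *Duox2* they were *Disp2* (0.96), *Parm1* and *1700003D09Rik*, and for *Duoxa2* they were *Arhgap23* (0.95) and *Mycbpap*. For *Duox1* the most alike of all was *Duoxa1* (0.90), followed by *Rchy1* and *Eid2b*, and for *Duoxa1* they were *C87436* (0.95), *Arrdc4* and *Xpa*. The mice share their groups and each library's depth, so these values partly describe the 4 group means.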

How the data were processed

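RNA from thyroid glands of 16 mice was sequenced in pairs of reads. The authors filtered read pairs on base quality, and aligned them to mm10 (STAR 2.5). Pairs were assigned to RefSeq genes by featureCounts 1.5.0-p1, ignoring strand. The deposited values are raw counts per gene, between 13892352 and 461077969 in all per mouse. The submitters' processing notes also name hg19, without its role.

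From these counts, CPM values, fold changes and adjusted p-values were computed in R 4.3.3 with edgeR 4.0.16 (filterByExpr on the 4 groups, TMM, robust quasi-likelihood fit of 16 mice with 1 mean per group, Benjamini-Hochberg over 16630 genes, threshold 0.05). The study used DESeq2, which is an alternative here (1.42.0). SE is the log2 fold change over the root of F. Ratios used counts plus 0.5 and exact permutation tests. The largest changes named in a gene list are the 3 largest called per comparison, and of the genes within 100 kb those given with values were picked after their values were seen. Genes and lists were chosen with earlier results of these data known, and some genes that these rules name are not reported here. The calling was also tried on simulated counts. These had the same spread for every gene and no library that stood apart, so they do not test it on data like these.

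No 2 libraries of a group were duplicates: chi-squared per degree of freedom was at least 34.5 over the 24 pairs. The sources do not say what a shared replicate number means. Deviations of same-numbered mice from their group means correlated from 0.29 to 0.72 over genes between the *Glis3*-Pax8Cre groups, and from -0.65 to 0.28 between other groups. The reported tests are unpaired, and pairing of the *Glis3*-Pax8Cre groups was tried as an alternative. P-values rest on the spread between these mice. Alternatives are named in the closing section.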

Additional observations from a re-analysis of the deposited data

Results flagged for a closer look

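WT(ND) replicate 3 lay far above its group in *Duox1* (22.6 CPM) and in *Duoxa1* (22.4 CPM). Its gap to the nearest mouse took 0.842 and 0.840 of the range of the group, above Dixon's 95% critical value for 4 samples. The same mouse had the highest *Pax8* and the highest summed parathyroid markers (12570 CPM) of WT(ND), and their part in its values was not tested. *Glis3*-Pax8Cre(LID) replicate 3 lay far below its group in *Duoxa1* (3.90 CPM), with a gap of 0.864 of the range. These were 3 of 40 groups examined, and chance alone marks about 1 in 20.

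The effect of the LID differed between genotypes for *Duox2*, by -0.92 on the log2 scale (adjusted p = 0.0341 in edgeR's quasi-likelihood test), and for *Duoxa2*, by -1.41 (adjusted p = 0.00101).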

How the results depend on the processing

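Over the 30 results of the 6 genes (5 tests each), direction and call were those reported in 30 of 30 with DESeq2, with RLE size factors, with no filter (21310 genes) and with at least 10 counts in every mouse (14265 genes), and in 25 of 25 with *Tg* left out of the table. Scaling by library size alone moved the median of all genes by -0.16 to 0.15 and gave -0.14 for *Tg* and 0.38 for *Duox2* in WT(LID) against WT(ND), and -0.58 for *Tg* and -0.51 for *Duox2* between the *Glis3*-Pax8Cre diets. Only the 8 mice of a comparison gave -0.79 for *Tg* on the ND, 0.85 for *Duox1* and 0.62 for *Duoxa1* between genotypes on the LID, and 0.48 for *Iyd* between the *Glis3*-Pax8Cre diets. The replicate block gave -0.00199 for *Tg* in WT(LID) against WT(ND) and changed no other call or direction of the 6 genes, nor did pairing in the 8 *Glis3*-Pax8Cre mice alone, chosen after seeing the data. In the ratio tests a block within pairs can give no p under 0.125.

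Without WT(ND) replicate 3 and *Glis3*-Pax8Cre(ND) replicate 4, *Tg* in WT(LID) against WT(ND) was -0.03. Between genotypes on the ND, *Duox1* was 0.62, *Duox2* -0.43, *Duoxa1* 0.32, *Duoxa2* 0.41 and *Iyd* 0.34. On the LID, *Duox1* was 0.84 and *Duoxa1* 0.62, both called. Between the *Glis3*-Pax8Cre diets, *Duox2* was -0.51 and *Duoxa1* -0.85, both called, and the difference of diet effects of *Iyd* was -0.52.

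Leaving out 1 mouse at a time gave, for WT(LID) against WT(ND), -0.0847 to 0.11 for *Tg* and 0.47 to 0.64 for *Duox2*. On the ND it gave -0.92 to -0.71 for *Tg*, -0.48 to 0.51 for *Duox1*, -0.74 to -0.49 for *Duox2*, -0.50 to 0.18 for *Duoxa1*, -0.0293 to 0.27 for *Duoxa2* and 0.0653 to 0.27 for *Iyd*. On the LID it gave 0.70 to 1.01 for *Duox1* and 0.55 to 0.78 for *Duoxa1*. Between the *Glis3*-Pax8Cre diets it gave -0.59 to -0.26 for *Duox2*, -0.85 to -0.555 for *Duoxa1*, -0.29 to 0.0939 for the log2 ratio of *Duox2* to *Duox1* and -0.11 to 0.26 for that of *Duoxa2* to *Duoxa1*, whose difference of medians was -0.0328. The difference of diet effects of *Duox2* lay between -1.14 and -0.80, and that of *Iyd* between -0.45 and -0.229. The cause of these changes was not tested.

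With a fold over 2 and an adjusted p under 0.01, 2075 genes were called for the diet in WT, 690 for genotype on the ND, 1319 on the LID, 832 for the diet in *Glis3*-Pax8Cre and 603 for the difference, against 6943, 3252, 5028, 4223 and 1969 at the threshold used. With only the 8 mice, 1653 genes were called on the ND and 2374 between the *Glis3*-Pax8Cre diets. Pairing those mice gave 2893 for the latter. Leaving out replicate 1 or 4 of WT(ND) gave 2153 or 2053 on the ND. *Duox1* and *Duoxa1* rest on 140 to 3107 counts per mouse.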
